A study of Equus caballus with 2 samples.

Results

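Sperm RNA of 2 fertile stallions with normal reproduction was sequenced from total RNA with 1 SOLiD library for each stallion, without a treatment or a contrast between groups. The ejaculates were fresh and were cleared of somatic cells and immature sperm on a density gradient. The animals' ages were not given in the sources used here. The deposited data list 19257 mapped tags, which are stretches of the horse draft assembly EcuCab2 covered by reads, each with its sequence and 1 average coverage (AC). Where the study's value for each stallion could be looked up, the deposited AC was the higher of the 2, so that AC of those tags stands for 1 stallion and not for a mean of both, and for the other tags this is unknown. The tags described here were chosen by 3 properties of the deposited entry, namely a place on ECA1 to ECA31 or ECAX, a length under 50 bp and a sequence written wholly in lower case. Lower case marks bases that repeat masking had set apart. These short masked tags numbered 3031, which was 15.7% of all tags, 16% of the 18952 tags on placed chromosomes and 30.3% of the 10009 short tags there. Length, case and chromosome set therefore describe the selection and are not results, whereas AC was not used by it.

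Much of a mammalian genome consists of interspersed repeats, copies of mobile elements such as LINEs and SINEs, and of simple repeats, in which a short unit follows itself many times. Old copies have diverged from each other by mutation, so that a read from such a copy can have a unique best place in the genome, while reads from young and nearly identical copies fit many places. Masking programs mark all of these by lower case letters, together with pseudogenes of small structural RNAs and of ribosomal RNA (rRNA) in many repeat libraries. The deposited letters do not tell which kind of repeat a tag belongs to, and no repeat family is named here.

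The 10 short masked tags with the highest AC are shown to give the sequences that carried most of the coverage, 5′ to 3′ on the deposited strand of EcuCab2.
chr20:7063095-7063141: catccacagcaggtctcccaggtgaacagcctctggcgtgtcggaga
chrX:38864175-38864219: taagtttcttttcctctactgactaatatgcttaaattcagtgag
chr24:18092961-18093009: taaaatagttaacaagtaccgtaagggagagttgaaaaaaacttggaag
chrX:66326951-66326979: aagaatttatactataactaaacatgaga
chrX:113491408-113491454: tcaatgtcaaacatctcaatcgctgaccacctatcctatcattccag
chr20:5612872-5612905: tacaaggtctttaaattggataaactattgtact
chr10:29022540-29022579: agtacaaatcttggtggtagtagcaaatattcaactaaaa
chr18:3648979-3649026: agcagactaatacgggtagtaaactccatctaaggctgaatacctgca
chr23:20777222-20777247: gctcagcacacacgggtttcagtggt
chr22:4261319-4261356: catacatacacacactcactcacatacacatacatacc
They lay on 7 chromosomes, and 3 of the 10 were on ECAX. The tag on ECA20 is listed by the study as 18S rRNA, an RNA of the small ribosomal subunit. The tag on ECA22, rich in CA steps, had similar tags elsewhere in the data by the measure given further on, and the other 9 had none.

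The highest tag, on ECA20, had AC of 57594.5. It was followed by 23608.2 for the tag on ECAX that starts at 38864175, by 21141.8 for the tag on ECA24, by 12729 for the tag on ECAX that starts at 66326951 and by 11673.2 for the tag on ECAX that starts at 113491408. The ECA20 tag was thus 2.44 times as high as the next, and these were the 5 short masked tags with AC of at least 10000. The remaining 5 of the 10 had AC of 8565.85 on ECA20 at 5612872, 6013.99 on ECA10, 4476.52 on ECA18, 3781 on ECA23 and 3612.63 on ECA22. Each is a single deposited value and is given without a replicate error, since the study's values for each stallion were not analysed here, and no test was made between tags, which are not replicates.

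Most tags had far lower coverage. Over the 3031 tags the lowest AC was 5.26 and the median 16.26, and the quartiles lay at 11 and 32.4. Of these tags 268 (8.84%) were very highly expressed with AC of at least 100, against a background of 7.94% over all placed tags and 9.17% over all placed short tags. The share of very highly expressed tags was therefore close to that of short tags at large. AC over 10 and under 100 was found for 2240 tags (73.9%) and AC up to 10 for 523 tags (17.3%). Short tags without a masked base had nearly the same values, with a median AC of 16 and 9.03% at AC of at least 100 among 6078 tags. Short tags masked in part also had a median of 16, and 11.2% of 900 reached AC of 100. The 698 masked tags of 50 bp or more had a lower median of 13.8 but a higher share at AC of at least 100, 14.6%.

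AC of at least 1000 was found for 21 short masked tags (0.693%) and for 43 short unmasked tags (0.707%), which is nearly the same share. The 10 highest short masked tags held 52.0% of the summed AC of the 3031, and the ECA20 tag alone held 19.6%. Since the kinds differ in size, the highest 1% of each was compared. It held 61% of the summed AC in short masked tags (30 tags), 43.5% in short unmasked tags (61 tags), 60.1% in short tags masked in part (9 tags) and 79.3% in long masked tags (7 tags). AC of at least 10000 was reached by 5 short masked tags, against 1 short unmasked tag, 1 short tag masked in part and 10 long masked tags. Short masked tags made up 30.3% of the placed short tags and 35.2% of their summed AC. Without the ECA20 tag the latter share was 30.4%. Of the summed AC of all 19257 tags they held 6.81%.

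**Figure D1:**
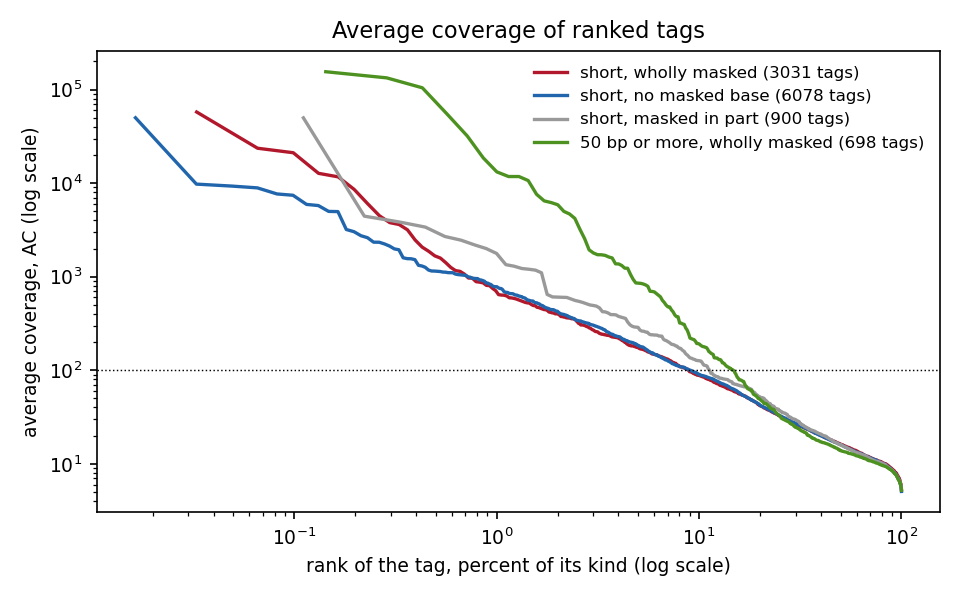
Average coverage (log scale) of tags ranked from high to low, with the rank as a percent of the tags of each kind (log scale) and a dotted line at AC of 100. The curves of short masked and short unmasked tags run together over most ranks and separate among the highest tags. The highest short masked tag is at 57594.5, the highest short unmasked tag at 49976.7 and the highest short tag masked in part at 49866.1.

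Lengths ran from 24 to 49 bp, the median length was 28 bp, and 2164 tags (71.4%) had at most 30 bp. All were shorter than the 50 bp reads, which were shortened base by base when they did not align. The methods also required at least 30 bases of good quality in a read. How the tags below that length arose was not tested. The most frequent lengths were 25 bp with 421 tags, 26 bp with 407 tags and 24 bp with 365 tags. AC moved with length. At 24 to 25 bp the median AC was 14 and 20 of 786 tags (2.54%) reached AC of 100. At 28 to 30 bp 11.3% of 663 tags did, with a median AC of 18.06. At 31 to 35 bp 17.0% of 441 tags did, with a median of 20.14. Among the longest tags, of 46 to 49 bp, the share was 10.8% of 120 tags and the median 14.73. Short unmasked tags went through the same course, with 2.92% at 24 to 25 bp, 16.6% at 31 to 35 bp and 6.45% at 46 to 49 bp. The rise of AC with length up to 35 bp was thus shared with short tags outside repeats.

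**Figure D2:**
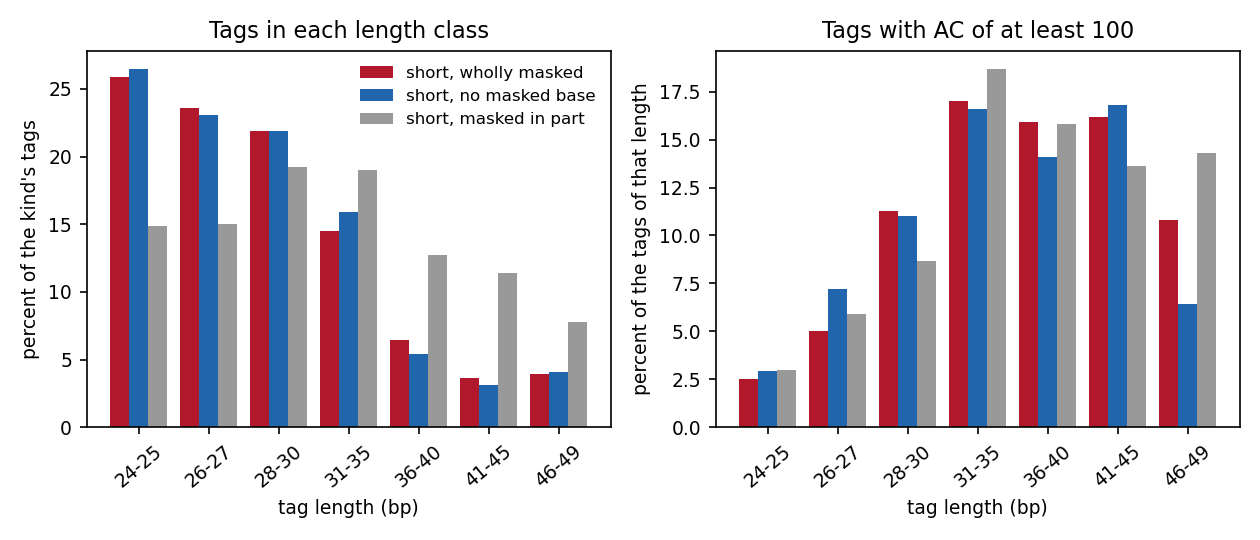
Percent of tags in each length class (left) and percent of the tags of that length with AC of at least 100 (right) for the 3 kinds of short tags, as bars from 0. Masked and unmasked tags have nearly the same lengths, and in both the share at AC of at least 100 is lowest at 24 to 25 bp and highest at 31 to 45 bp.

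Around the length limit the values were as follows. The 20 tags of 48 bp had a median AC of 24.65 and the highest of them, on ECA18, had 4476.52. The 49 tags of 49 bp had a median of 11.13 with the ECA24 tag of 21141.8 as the highest. Just outside the rule, 31 masked tags of 50 bp had a median of 12.26 and a highest AC of 2549.34 at chr10:26933816-26933865, and 20 masked tags of 51 bp had a median of 11.34 and a highest AC of 1372.24 at chr18:29260661-29260711. Short tags with a single capital letter numbered 52 and had a median AC of 15.74, with a highest value of 2689.61.

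Every placed chromosome held such tags. The numbers ran from 287 on ECA1, 189 on ECA15, 184 on ECA14 and 181 on ECA2 down to 22 on ECA31. Taken as a share of the short tags of the same chromosome, they were most frequent on ECA2 (40.7% of 445), ECA9 (37.3% of 209) and ECAX (36.2% of 282) and least frequent on ECA12 (22.6% of 212) and ECA11 (25% of 420). The median AC of a chromosome's short masked tags ran from 12.72 on ECA12 and 12.92 on ECA11 to 23.04 on ECAX and 23.92 on ECA31.

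The chromosomes ECA1 and ECA10 to ECA19, which are the 11 whose names begin with the digit 1, held 1585 of the tags (52.3%), and the 21 other chromosomes held 1446. The tags of the 11 chromosomes had a lower median AC, 14.3 against 18.49, and 5.74% of them reached AC of 100 against 12.2% elsewhere. Among tags with AC over 10 alone, these shares were 7.67% of 1187 tags and 13.4% of 1321 tags. The share of tags lying on the 11 chromosomes was lower at higher AC. Of the 79 tags with AC under 7, 75 (94.9%) were on the 11 chromosomes and 4 on the others. From AC of 7 to under 10 the share was 74.6% of 418 tags, and from 10 to under 15 it was 51.1% of 874 tags. From 20 to under 50 it was 51.2% of 683 tags and from 50 to under 100 it was 37.8% of 267 tags. Among the 268 tags with AC of at least 100 it was 34%. The same order was found in short unmasked tags, with 95.9% under AC of 7 and 40.8% at AC of at least 100, and in long masked tags, with 92.9% and 36.3%. The unequal placement was thus not particular to masked sequence. The lowest AC of a short masked tag was 5.26 on the 11 chromosomes and 5.81 on the others.

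**Figure D3:**
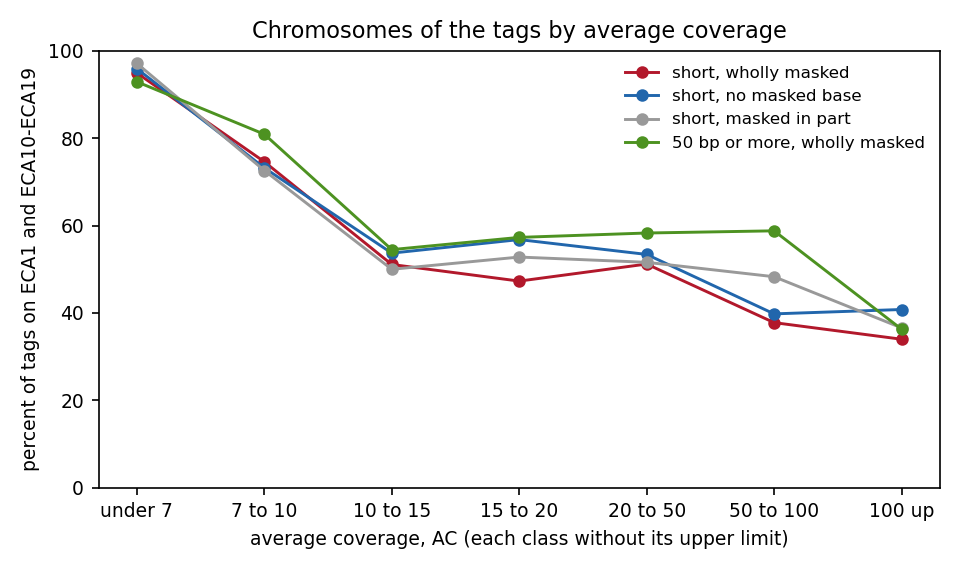
Percent of tags lying on ECA1 and ECA10 to ECA19 in classes of average coverage, for the short masked tags and 3 other kinds of tag, with points joined by lines. In all 4 kinds the percent is above 90 under AC of 7 and at most 40.8 at AC of at least 100.

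G+C content was close to that of other short tags and lower than in long masked tags. Its median was 40%, with 90% of the tags between 18.3% and 61.8%. It was 41.7% in short unmasked tags, 41.2% in short tags masked in part and 48% in long masked tags. The difference from unmasked tags lay mainly at the upper end, since 189 short masked tags (6.24%) had G+C over 60% against 11.5% of short unmasked tags. The dinucleotide CG, the site of DNA methylation in mammals, occurred 9.43 times per 1000 bases in short masked tags, 14.7 times in short unmasked tags and 16.1 times in long masked tags. G+C hardly moved with AC, with a median of 41.4% in tags with AC up to 10 and of 40.2% in those with AC of at least 100.

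**Figure D4:**
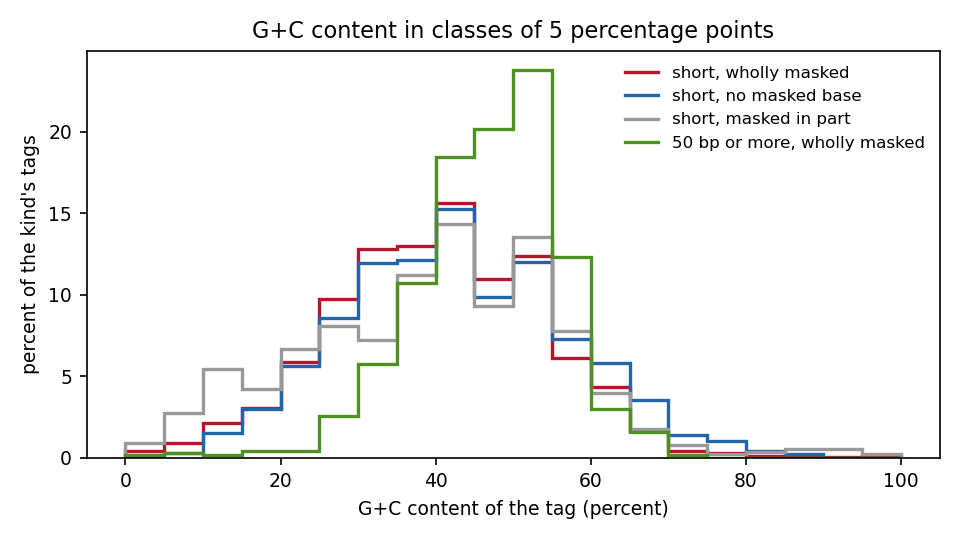
Percent of the tags of each kind in G+C classes 5 percentage points wide. The short masked and short unmasked tags overlap broadly around medians of 40% and 41.7%, and the long masked tags form a narrower peak around 48%.

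Few tags consisted wholly of a simple repeat. A tag was called a tandem repeat if at least 0.85 of its bases equalled the base 1 to 6 places before, and 6 of the 3031 tags (0.198%) met this. With a share of 0.75 in place of 0.85 it was 1.52%, and with 0.95 it was 0%. Shorter stretches of simple repeat were more common, since GAGAGAGAGA, on either strand, was the most frequent word of 10 bases, with 79 short masked tags (2.61%) against 71 short unmasked tags (1.17%). It was more frequent still in short tags masked in part (4.33%) and in long masked tags (5.3%). The word ACACACACAC did not differ in this direction, with 1.12% of short masked and 1.25% of short unmasked tags. The 6 tags comprised 1 tag with a unit of 2 bases, 2 with a unit of 5 and 3 with a unit of 6, and their AC was 11.22 to 84.86, so that none was very highly expressed. Of the other tags, 42 (1.39%) were at least 90% A+T, 5 were at least 90% G+C and 57 (1.88%) were at least 90% purine or pyrimidine on 1 strand. In short unmasked tags these shares were 0.313% for A+T and 0.856% for purine or pyrimidine. The remaining 2921 tags (96.4%) had no such simple composition and held 263 of the 268 tags with AC of at least 100. The highest tag of each simple class is shown, in the order of units of 2, 5 and 6 bases, A+T rich, G+C rich and purine or pyrimidine rich.
chr21:12359771-12359797: tgtgtgtgtgtgtgtgtgtgtagatat
chr16:15731496-15731540: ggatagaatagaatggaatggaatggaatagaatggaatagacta
chr1:178016253-178016288: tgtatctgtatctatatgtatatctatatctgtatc
chr8:85307241-85307276: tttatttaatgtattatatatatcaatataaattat
chr19:45534197-45534242: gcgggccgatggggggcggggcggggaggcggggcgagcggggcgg
chr7:70831204-70831231: gaaggagagaaaaaagagatcgaggaag
Their AC was 20.66, 13.17, 84.86, 114.29, 39.69 and 541.4 in this order. The purine tag on ECA7 was the highest by far, and the tandem repeats were all below AC of 100.

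Similarity between tags depended strongly on how much of a tag had to align. A tag was counted as similar to another tag of the data set if at least 80% of it aligned with at least 90% identity on either strand. This held for 331 short masked tags (10.9%), against 4.99% of short unmasked tags and 13.1% of short tags masked in part. When 50% of the tag had to align it was 72.3% of short masked tags, and at 100% identity it was 2.28%. Of the 331, 91 were similar to a long masked tag, 142 to a long tag with unmasked bases, 143 to another short masked tag, 74 to another short tag and 22 to a tag on unplaced contigs or the mitochondrial genome, and a tag may count in several of these. Among short masked tags, having a similar tag did not go with higher coverage. The median AC was 15.84 with a similar tag and 16.31 without, and 29 of the 331 (8.76%) reached AC of 100. In the other short kinds more of the tags with a similar tag did so. The share was 17.2% for unmasked tags, against 9.03% of that kind, and 19.5% for tags masked in part, against 11.2%. For 219 of the 331 (66.2%) the similar tag with the highest AC lay above the short masked tag. Only 191 of the 331 had a single similar tag, and 13 had 10 or more. With several similar tags the highest of them lies above more often by construction, so this share shows no relation. Where that highest AC was at least 1000, which held for 40 tags, the short masked tags had a median AC of 38.27 with a range of 5.26 to 1670.93. Their median was 11.14 where it was under 10, 15.7 from 10 to under 100 and 19.32 from 100 to under 1000.

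When 2 short masked tags were joined wherever at least 1 of them was similar to the other by this measure, and joined tags were linked into families, 210 (6.93%) fell into 75 families, of which 52 were pairs. The largest family held 17 tags on 13 chromosomes with a median AC of 14.68. Its 3 highest members were as follows, with the bases CACACA, common to all of its members on 1 of the strands, in capitals. These bases are a frequent word, found in 1744 of all tags and 125 short masked tags.
chr22:4261319-4261356: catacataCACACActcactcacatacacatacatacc
chr26:7061118-7061143: gctatatccacaaaCACACAcacatt
chr11:58689618-58689653: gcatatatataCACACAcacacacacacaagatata
Their AC was 3612.63, 52.69 and 27.79, so that the first stood far above the rest of the family, whose lowest member had 6.24. The second family had 9 members with AC of 12.26 to 84.86, and its 3 highest, with 84.86, 45.78 and 39.43, are shown with the 5 bases common to all 9 in capitals, which 2714 of all tags and 355 short masked tags contain.
chr1:178016253-178016288: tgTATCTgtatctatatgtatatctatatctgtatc
chr6:51146722-51146749: atatgtctaTATCTgtatctatatctat
chr24:38992108-38992140: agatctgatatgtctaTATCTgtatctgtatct
None of the 9 reached AC of 100.

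A family of 8, which shared its rank by size with another, had 7 members on chromosomes of the group ECA1 and ECA10 to ECA19 and 1 on ECA2, with AC of 5.49 to 15.66. Its 3 highest, with AC of 15.66, 15.14 and 14.68, share a stretch of 9 bases, in capitals, that also occurred in 32 long tags.
chr19:47149374-47149401: tgaggaagACTGGCCCTgagctaacccc
chr16:73469952-73470000: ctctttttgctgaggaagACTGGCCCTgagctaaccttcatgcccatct
chr15:22237765-22237793: tgaggaagACTGGCCCTgagctaaccccc

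Among the 3031 tags 3 pairs had the same sequence at different places, shown here by 1 tag of each pair.
chr10:32440462-32440486: taaaaattctcatttgaattgtact
chr14:24100721-24100749: ctaatttataaattaaggtttatcatagg
chr15:67659253-67659301: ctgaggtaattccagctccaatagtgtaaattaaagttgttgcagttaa
The first is repeated on ECA19 at 4791902, with AC of 10.27 at both places. The second is repeated on ECA16 at 61056399, with 7.59 at both, and the third on ECA17 at 11083789, with 8.26 at both. Equal sequences thus carried equal AC, which also held for all 10 sets of equal sequences among the placed short tags.

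Several of the highest tags resembled the abundant RNAs of the data set at a lower identity than the limit used so far. The 482 short masked tags of at least 35 bp were aligned over their whole length with the 33 tags of at least 100 bp and AC of at least 10000. At least 80% identity was reached by 27 of them (5.60%), against 9 of 887 short unmasked tags (1.01%) of the same length. By coverage these were 4 of 14 short masked tags with AC of at least 1000, 7 of 57 with AC of 100 to under 1000, 10 of 317 with AC of 10 to under 100 and 6 of 94 below. In short unmasked tags the numbers were 1 of 18, 8 of 109, 0 of 551 and 0 of 209. Similarity to an abundant tag was thus found at all levels of coverage in masked tags and in unmasked tags above AC of 100 alone. This measure was chosen after the values had been seen and carries no test.

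**Figure D5:**
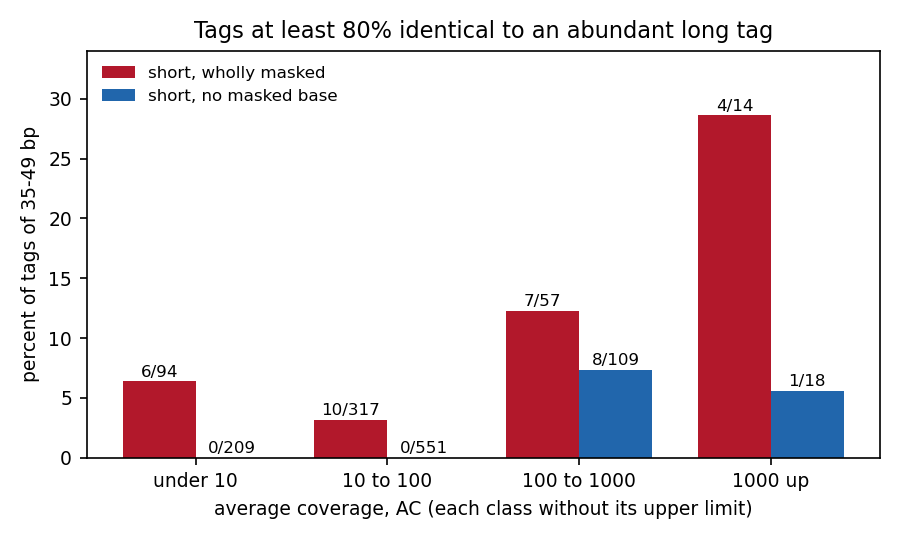
Percent of short tags of 35 to 49 bp that were at least 80% identical to an abundant long tag, in classes of average coverage, with the numbers of tags above the bars. Among short masked tags the percent is 28.6 at AC of at least 1000 and 3.15 from 10 to 100, and among short unmasked tags it is 0 below AC of 100.

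For 16 of the 27 tags the abundant partner was itself listed by the study as rRNA or aligned with a tag so listed, over at least 40 bp with at least 80% identity. The partners went with 18S rRNA for 7 tags, with 28S rRNA, an RNA of the large ribosomal subunit, for 6 tags and with 45S pre-rRNA, from which both are cut, for 3 tags. A further tag had a partner that went with 7SL RNA, a part of the particle that targets new proteins to membranes, and 10 had partners without such a listing. The study's list covers only its most abundant tags without annotation. Whether the partners of these 10 are rRNA outside that list was not tested. The following tags are shown with the stretch of the partner under each of them, turned to the same strand, with identical bases in capitals.
chr20:7063095-7063141: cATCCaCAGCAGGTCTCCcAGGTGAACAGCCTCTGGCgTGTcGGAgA
chrUn:55098490-55098534: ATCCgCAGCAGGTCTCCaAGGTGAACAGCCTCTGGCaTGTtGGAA
chr10:29022540-29022579: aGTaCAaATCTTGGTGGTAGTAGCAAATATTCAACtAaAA
chrUn:55098941-55098980: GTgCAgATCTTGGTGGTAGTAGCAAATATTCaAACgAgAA
chr10:35512566-35512607: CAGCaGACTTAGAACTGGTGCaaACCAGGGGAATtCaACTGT
chrUn:55098012-55098053: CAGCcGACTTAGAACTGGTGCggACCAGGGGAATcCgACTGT
chr21:49294631-49294670: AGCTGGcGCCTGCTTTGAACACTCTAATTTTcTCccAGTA
chr1:89076521-89076560: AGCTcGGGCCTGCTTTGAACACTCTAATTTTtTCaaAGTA
chr15:67659253-67659301: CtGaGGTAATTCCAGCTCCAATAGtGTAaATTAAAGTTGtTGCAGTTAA
chr1:89076692-89076739: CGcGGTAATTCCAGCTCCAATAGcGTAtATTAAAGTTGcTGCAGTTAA
The ECA20 tag with the highest AC was 87.2% identical to its partner of 632 bp, whose AC was 153853.4 and which went with 45S pre-rRNA. The study lists the ECA20 tag itself as 18S rRNA. Only 18.4% of the partner aligned with the tag listed as 45S pre-rRNA, and that listing does not tell 18S from 28S rRNA. Which rRNA the ECA20 tag and this partner belong to was not tested. The tag on ECA10 with AC of 6013.99 was 85.0% identical to the same partner. The tag on ECA10 with AC of 1670.93 was 88.1% identical to a partner of 1356 bp that went with 28S rRNA, and the tag on ECA21 with AC of 1256.36 was 87.5% identical to a partner on ECA1 that went with 18S rRNA. The last tag shown, on ECA15, had the same similarity to 18S rRNA sequence at 89.8% but AC of only 8.26. Of the 27 tags, 7 lay within 2000 bp of another, in 3 groups on ECA13, ECA16 and ECA21. The group on ECA16, between 37243023 and 37244339, held 3 of the 27 tags. The other 8 of the 10 highest short masked tags were at most 69.2% identical to any of the 33 abundant tags. These 33 need not hold the whole of each rRNA, and no rRNA reference was searched. Whether the 8 resemble other stretches of rRNA was therefore not tested.

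The shared motifs were searched on both strands. AATAAA, the usual polyadenylation signal, was present in 150 short masked tags (4.95%), against 4.74% of all placed short tags. TTAGGG, the unit of telomeres, was present in 19 (0.627%), against 0.689%. GTTCNANNC, the B box of the internal promoter of tRNA genes and of SINEs that derive from them, was present in 20 (0.660%), against 0.520% of all placed short tags and 3.30% of long masked tags. The B box was present in 22 short unmasked tags (0.362%) and in 10 short tags masked in part (1.11%). The shares of AATAAA and TTAGGG thus lay near those of short tags at large, which include the short masked tags. That of the B box lay between those of short unmasked tags and of short tags masked in part, with few tags in each. The highest tag with each motif is shown with the match in capitals, in the order B box, AATAAA and TTAGGG.
chr21:49294631-49294670: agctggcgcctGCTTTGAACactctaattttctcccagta
chr9:2129651-2129692: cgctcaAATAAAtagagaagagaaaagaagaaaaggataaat
chr21:37426020-37426052: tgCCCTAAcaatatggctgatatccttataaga
Their AC was 1256.36, 1580.53 and 643.02. The first is the tag on ECA21 already given beside 18S rRNA sequence.

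A word of 10 bases that is not a tandem repeat, ACTATGTGAT, occurred with its reverse complement in 36 short masked tags (1.19%), in 46 short unmasked tags (0.757%) and in 1 long masked tag. Read further, it belongs to a 12-base cycle, cactatgtgata. In SOLiD reads each colour stands for a pair of neighbouring bases, and in this code the cycle is a run of 6 colours that repeats. The same 6 colours are also those of a second base cycle, acagcgtgtcgc. Runs of at least 12 such colours, or 13 bases, were found in 37 short masked tags (1.22%), 0.740% of short unmasked tags, 0.778% of short tags masked in part and 0.287% of long masked tags. Of the 37, 35 had the first base cycle and 2 the second. Examples are given with the run in capitals, the longest runs first, then both tags with the second cycle and last the tag with the highest AC.
chr21:45808534-45808564: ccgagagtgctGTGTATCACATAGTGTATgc
chr7:66560035-66560061: ctCACTATGTGATACACTctatttctg
chr27:29338680-29338721: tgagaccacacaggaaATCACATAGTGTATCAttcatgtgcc
chr11:35190856-35190892: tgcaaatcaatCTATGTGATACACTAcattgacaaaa
chr21:1666477-1666504: aactgtctcgtACACGCTGTGCGACctc
chr5:93930465-93930491: ccaGTCGCACAGCGTGTtcttgctgag
chr2:63849811-63849842: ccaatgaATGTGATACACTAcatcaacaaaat
The tags with the run lay on 21 chromosomes and had a median AC of 25.34, with a highest value of 563.65. AC of at least 100 was found for 5 of the 37 (13.5%), against 8.84% of all short masked tags and 22.2% of the short unmasked tags with such a run. Of the 37, 5 had a similar tag elsewhere. The word and the run were chosen after the sequences had been seen, and their source was not tested.

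The tags mostly lay alone. The median distance to the nearest other tag was 58527 bp, and 18 tags (0.594%) were within 100 bp of another, 71 (2.34%) within 1000 bp and 388 (12.8%) within 10000 bp. Short unmasked tags had 1.17%, 3.83% and 15.7% at these distances. Long masked tags lay much closer to others, with a median of 8592 bp and 14.8% within 100 bp. Of the 18 close neighbours of short masked tags, 10 were long masked tags, 4 were long tags with unmasked bases and 2 were short masked tags themselves. The 3 highest short masked tags within 100 bp of another tag were the following.
chr10:26389409-26389449: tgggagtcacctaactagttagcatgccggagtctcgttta
chr1:49296215-49296261: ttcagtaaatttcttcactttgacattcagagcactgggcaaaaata
chr8:46859758-46859788: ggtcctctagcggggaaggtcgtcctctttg
The tag on ECA10 had AC of 592.6 and lay 88 bp from a tag of 130 bp with AC of 18607.2. The tag on ECA1 had AC of 398.86, with a tag of 77 bp and AC of 847.96 at 13 bp. The tag on ECA8 had AC of 258.34, with a tag of 92 bp and AC of 214.43 at 23 bp. In 11 of the 18 the short masked tag had the lower AC of the neighbouring tags.

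MicroRNAs (miRNAs) are short RNAs that guide the silencing of messenger RNAs. By their coordinates, 8 of the 3031 tags are listed by the study under 9 miRNA names. No share over all tags is set beside this count, so it does not tell whether short masked tags hold many or few. The study named tags with a wide window around annotated genes, and of these names its list marks only MIR1302B-2 as fully aligned with a horse gene model, so that AC is that of the tag and not of the miRNA. The names were MIR490 with AC of 52.1, MIR10B with 41.39, MIR590 with 25.12, MIR1302B-2 with 23.15, MIR126 with 23, MIR101-2 with 16.82, MIR220B and MIR220B-2 on a single tag with 9.85, and MIR711 with 6.73. None reached AC of 100. The 3 highest, in the order of their AC, have these sequences, which belong to the tags and not to the mature miRNAs.
chr4:90790751-90790781: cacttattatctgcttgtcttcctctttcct
chr18:54601808-54601838: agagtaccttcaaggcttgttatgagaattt
chr13:11685265-11685289: gaggcgggggcccggcgggcccgcg
The tag listed for MIR590 was 96.0% G+C, and the tag listed for MIR126 was 68.0%. The others had 33.3% to 50%. Only the tag listed for MIR126 had a similar tag elsewhere in the data.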

How the data were processed

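Sperm of 2 fertile stallions was sequenced with 1 library each. The authors aligned 50 bp single-end SOLiD 4 reads to EcuCab2 with NovoalignCS, tried unaligned reads again after removing 1 base at a time, discarded reads with several similarly scoring alignments, and clustered the rest into tags with the EXP pipeline. The deposited average coverage is a signal value, 1 per tag, scaled linearly by the authors to the sample with the fewest reads. The methods do not say how the samples became 1 value. They sort loci by the sum of both, and column heads in the study's lists name the highest value. Where the study's table with a value for each sample could be read, the deposited value equalled the higher of both, to within 0.1%. Tags of lower coverage could not all be looked up there. Coverage is therefore given as deposited, which for the tags looked up is the value of 1 stallion, without replicate error, tags are not replicates, and the precision of a single value is unknown because the reads behind each tag were not counted here, so no test was made.

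Tags were counted with Python 3.11.15 and numpy 2.4.6. Similarity was measured with blastn 2.17.0 (word size 11, both strands, no low-complexity filter) and by whole-tag edit distance. All positions are those of EcuCab2 as deposited, and no genome or annotation of that build was used here. The members, measures and lists were chosen with earlier results of these data known. Named tags were the 10 highest, the highest of each sequence class and motif, the 3 highest of each of the 3 largest families and of those within 100 bp of another tag, and the highest at 48 to 51 bp. Other tags, namely the rRNA-like tags, the equal pairs, the colour runs and the miRNA-listed tags, were chosen for the text after seeing their values. The last place among these families was shared by 2 of equal size, and 1 of the 2 is not reported here. The tandem repeat call, the similarity families and the colour runs were tested on simulated sequences, and each recovered what had been put in. The simulated families had tags longer than the median here. The whole-tag edit distance, the link to listed rRNA and the motif search were not tested in this way. Alternatives were the length limit, the capitals allowed, the coverage thresholds, and the limits of the repeat and similarity calls.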

Additional observations from a re-analysis of the deposited data

How the results depend on the processing

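Of 31 alternatives over 8 values, 22 left the value within its 95% binomial interval or, for counts and the summed share, within 1.5 times, and 9 moved it. The median AC was 19.29 when tags with AC of 10 or less were left out. The share of very highly expressed tags was 17.7% with a threshold of 50 and 4.26% with a threshold of 200. The share on ECA1 and ECA10 to ECA19 was 34% for tags with AC of at least 100 and 76.1% for those with AC of 10 or less. Tandem repeats made up 1.52% with a match share of 0.75 and 0% with 0.95. Tags similar to another made up 2.28% at an identity of 100% and 72.3% when 50% of the tag had to align, which at these lengths is often little more than the word of 11 bases that starts an alignment. Changing the length limit to under 40 bp or up to 59 bp, or allowing up to 10% capitals, moved none of the values for which it was run. These changes kept most of the same tags, with 2772, 3187 and 3176 tags in place of 3031, so they could show little movement. Another AC threshold changes the share above it by definition. The numbers of moved and unmoved values are therefore no measure of stability.

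No paired analysis was possible because the deposited table gives 1 value per tag, and no library was left out for the same reason; the study's own values for each stallion were not analysed here. The depth behind a single value is unknown, and the intervals cover the counting of tags only.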

Other observations

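Unplaced contigs, which the selection left out, held 106 tags under 50 bp, and 50 of them (47.2%) were wholly masked. Their median AC was 21.04, the highest was 240.07 and 3 reached AC of 100.

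Among the 3031 short masked tags 289 (9.53%) had an AC that was a whole number to within 0.005. At 24 to 25 bp this held for 231 of 786 tags (29.4%) and at 26 to 27 bp for 24 of 715 (3.36%). Short unmasked tags had 30% and 3.28% at these lengths, and long masked tags had 0.430% over all lengths.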
